A study of Mus musculus with 10 samples.

Results

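The genes described here are 10 building blocks and regulators of the contractile actin apparatus: Acta2, Actg2, Tagln, Cnn1, Cnn2, Myl9, Tpm1, Tpm2 and Vcl, together with Srf, the transcription factor best known for driving such genes. No measured value enters the rule, which is a list of names, but the list was drawn up with earlier results of these data known. They are 10 of the 23370 gene symbols in the data. All 10 exceeded 1 RPKM (reads per kilobase of transcript, scaled to depth) in at least 2 of 10 libraries, the condition under which 12168 genes were tested.

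RNA was sequenced from mouse embryonic fibroblasts (MEFs), connective tissue cells grown out of embryos, in a pretreated arm and in a naive arm. The time points of either arm were 0, 1, 2, 4 and 6 h. Every combination of arm and time is a lone library, and no value has a replicate of its own group. The cells of both arms were of strain C57BL/6 and carried the H3.3b-HA knock-in, in which a tagged H3.3 cDNA takes the place of the H3f3b locus, and both were kept in DMEM with 10% FBS on uncoated plastic. The labels state interferon-beta (IFN-β), the antiviral cytokine, at 100 U/ml for the series as a whole. With what, for how long and at which dose the pretreated cells were treated beforehand, and whether they were washed, is not given in the labels. The hours are taken to count from the addition of IFN-β. None of the later libraries analysed here is labelled as unstimulated, so a change from 0 h cannot be told apart from time in culture or handling. How many embryos or cultures the cells came from is not given either.

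Contraction in smooth muscle, and tension in fibroblasts that take on smooth muscle traits, comes from myosin pulling on actin filaments that are decorated with tropomyosin, calponin and transgelin and anchored to adhesions through vinculin. SRF binds a short DNA element, the CArG box, near the start of many of these genes and of its own gene. Its partners split its targets into groups. Myocardin-related factors (MRTF-A and MRTF-B, listed as Mkl1 and Mkl2) are held by monomeric actin and released when actin polymerises, and they serve cytoskeletal genes, whereas the ternary complex factors Elk1, Elk3 and Elk4 respond to MAP kinase signalling and serve immediate early genes such as Egr1.

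The stretches before the start sites are shown because a CArG box is the sequence feature that links these genes to SRF. RefSeq promoter windows (GRCm38.p6, the same assembly as mm10) were matched for 8 of the 10 genes, and Tagln and Actg2 had no entry. Positions are counted from the start site of that table, with −1 the base just before it. The 250 bases before the start follow for 5 genes, read 5′ to 3′ on the gene's own strand, with CArG boxes in capitals. In Acta2 the capitals mark boxes with 1 mismatch in the A/T core, and in Myl9 the first capital stretch is an intact box and the other has 1 core mismatch. The windows are chr19:34255374-34255623 (minus strand) for Acta2, chr2:156775214-156775463 (plus strand) for Myl9, chr10:79988350-79988599 (plus strand) for Cnn2, chr14:20929148-20929397 (plus strand) for Vcl and chr17:46556163-46556412 (minus strand) for Srf.
Acta2: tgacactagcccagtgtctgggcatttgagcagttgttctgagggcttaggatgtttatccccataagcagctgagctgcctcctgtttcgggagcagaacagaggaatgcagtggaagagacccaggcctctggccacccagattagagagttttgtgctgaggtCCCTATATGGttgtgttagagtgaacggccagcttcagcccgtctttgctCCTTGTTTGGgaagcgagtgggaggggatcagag
Myl9: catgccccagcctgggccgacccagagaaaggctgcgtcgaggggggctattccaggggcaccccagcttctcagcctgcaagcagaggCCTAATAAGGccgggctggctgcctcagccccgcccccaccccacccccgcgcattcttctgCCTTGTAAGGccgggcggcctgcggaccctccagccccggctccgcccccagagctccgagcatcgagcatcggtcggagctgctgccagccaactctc
Cnn2: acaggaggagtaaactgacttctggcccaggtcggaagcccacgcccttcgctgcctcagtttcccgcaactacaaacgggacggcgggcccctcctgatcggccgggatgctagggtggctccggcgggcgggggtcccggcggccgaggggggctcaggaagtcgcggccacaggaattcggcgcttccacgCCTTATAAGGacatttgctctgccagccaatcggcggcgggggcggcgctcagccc
Vcl: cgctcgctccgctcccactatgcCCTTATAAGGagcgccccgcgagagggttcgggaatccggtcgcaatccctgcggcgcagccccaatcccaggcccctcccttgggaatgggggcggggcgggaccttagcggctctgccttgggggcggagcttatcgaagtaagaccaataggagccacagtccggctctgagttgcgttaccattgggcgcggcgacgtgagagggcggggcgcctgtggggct
Srf: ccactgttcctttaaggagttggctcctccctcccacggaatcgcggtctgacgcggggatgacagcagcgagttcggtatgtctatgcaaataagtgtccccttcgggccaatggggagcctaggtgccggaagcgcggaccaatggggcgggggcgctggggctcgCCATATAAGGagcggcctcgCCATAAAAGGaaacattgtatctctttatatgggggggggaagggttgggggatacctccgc

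An intact CArG box lay between 250 bases before and 50 bases after the start, on either strand, in 4 of the 8 genes, against 1.63% of 32851 promoter windows of the same length. Srf itself had a pair, CCATATAAGG at −82 and CCATAAAAGG at −62. Cnn2 at −56 and Vcl at −227 held the same letters, CCTTATAAGG, and Myl9 held CCTAATAAGG at −161. With 1 core mismatch allowed, a setting added after the data were seen, Acta2 gained CCCTATATGG at −84 and CCTTGTTTGG at −34, and Myl9 gained CCTTGTAAGG at −99, against 8.50% of all windows with such an imperfect box. Tpm1, Tpm2 and Cnn1 held neither form in these windows. The start site of the Tpm2 window lies upstream of that of the counted row NM_009416 (chr4:43523388, minus strand). That of the Vcl window lies upstream of that of NM_009502 (chr14:20929433, plus strand). For these genes the windows are thus not centred on the counted transcript's own start. Among other short motifs, GGGCGG, the core of an SP1 site, was in 6 of the 8 windows (35.7% of all windows), the E-box CANNTG in 6 (72.3%), CATTCC, the core of a TEAD site, in 3 (14.7%) and TATAAA in 1, that of Srf (13.6%). The core of the interferon-stimulated response element, the DNA element bound by the interferon-activated factor ISGF3, was in 0 of the 8 windows and in 3.44% of all windows. A match says only that the letters are there, and none of the data here measure binding.

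The libraries held between 83.9 and 268 M counts (M, mega), with the 4 and 6 h libraries of both arms the deepest, and 11607 to 11815 genes at 1 RPKM or more. The pretreated 1 h and 4 h libraries stood apart from the other 3 of their arm. The imprinted noncoding RNA H19 had 9.39, 43.7, 9.19, 44.4 and 9.78 RPKM from 0 to 6 h in the pretreated arm, against 109.7, 123, 89.5, 53.4 and 55.2 RPKM in the naive arm. The ribosomal precursor Rn45s took 3.90% and 2.85% of the counts in the 0 h and 1 h libraries of the pretreated arm, against 0.974% to 1.51% elsewhere. Isg15, a classical interferon-stimulated gene, had 82.7 RPKM in the pretreated and 0.608 RPKM in the naive 0 h library. H3f3b was listed at 10.6 to 14.9 RPKM in every library, and reads of the inserted cDNA cannot be told apart from it.

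The label MEF was checked on marker genes. Of 12 fibroblast markers 11 passed the filter, with a summed level of 9878 to 12923 RPKM in pretreated and 11612 to 14442 RPKM in naive libraries. Of 16 smooth muscle markers 12 passed, at a summed 1695 to 2581 RPKM in pretreated and 1509 to 2997 RPKM in naive libraries, a sum that is mostly Acta2. Among those that passed were Smtn (smoothelin) at 20.4 to 51.8 RPKM, Mylk (myosin light chain kinase) at 5.42 to 13.01 RPKM and Lmod1 (leiomodin) at 2.13 to 8.53 RPKM. The other 4 did not pass: Myh11, the smooth muscle myosin heavy chain, reached at most 0.793 RPKM, Des (desmin) 0.643 RPKM and Myocd (myocardin) 0.012 RPKM, and Itga8 stayed under 1 RPKM too. These marker genes were singled out after their values were seen. The libraries are called fibroblasts as labelled, with part of the smooth muscle list expressed. Of other cells, 2 of 12 striated muscle, 4 of 6 pericyte, 1 of 6 macrophage, 2 of 6 endothelial and 1 of 6 epithelial markers passed. Their summed levels in pretreated and naive libraries were 10.1 to 12.8 and 8.22 to 14.5 RPKM for striated muscle, 16.5 to 24.2 and 17.1 to 31.9 RPKM for pericytes, 2.70 to 4.13 and 2.52 to 4.002 RPKM for macrophages, 1.67 to 2.64 and 1.48 to 3.21 RPKM for endothelium, and 1.98 to 3.49 and 1.43 to 5.37 RPKM for epithelium. Myod1 and Emr1 were at 0 in every library.

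**Figure D1:**
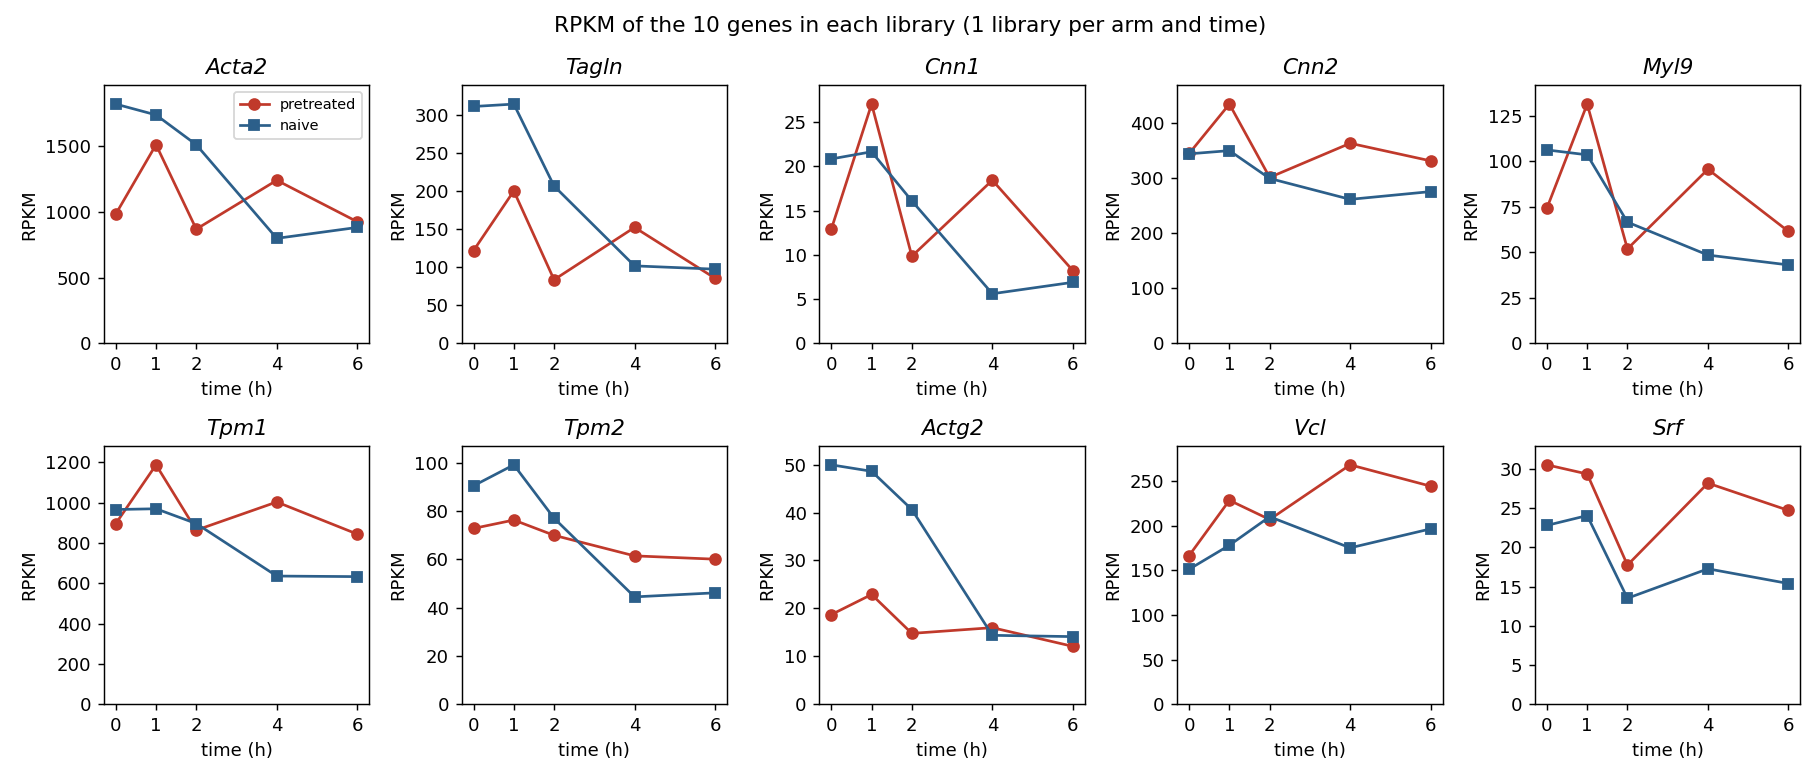
RPKM (y axis, from 0) against time in hours (x axis) for each of the 10 genes, with 1 library per point, pretreated as red circles and naive as blue squares. In the naive arm 8 of the 10 genes sit lower at 4 and 6 h than at 0, 1 and 2 h, and in the pretreated arm 6 of them peak at 1 h and 4 h.

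Levels spanned a wide range. By mean RPKM over the 10 libraries (± SD over the libraries, which differ in arm and time) the order was Acta2 with 1229 ± 388, Tpm1 with 889.5 ± 166, Cnn2 with 331 ± 49.7, Vcl with 202 ± 36.6, Tagln with 168 ± 88.2, Myl9 with 78.2 ± 29.4, Tpm2 with 69.8 ± 17.5, Actg2 with 25.2 ± 15.1, Srf with 22.4 ± 6.08 and Cnn1 with 14.7 ± 7.19. The means of the neighbours Acta2 and Tpm1, Vcl and Tagln, Myl9 and Tpm2, and Actg2 and Srf lay closer together than the larger of their SDs. Acta2 was still above Tpm1 in every library, whereas within each of the other pairs the order changed between libraries. Acta2 was more abundant than 99.9% of the genes tested and Cnn1 than 58.6%. The lowest count behind any of these values was 1621, for Actg2, so counting error is small beside the differences between libraries.

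In the naive arm the contractile genes were lower together at 4 and 6 h than at the earlier times. Acta2, which encodes smooth muscle α-actin, had 1821, 1738, 1512, 799.6 and 883 RPKM at 0, 1, 2, 4 and 6 h. Actg2, the smooth muscle γ-actin, had 49.96, 48.6, 40.6, 14.4 and 14.1 RPKM. Tagln (transgelin), which bundles actin filaments, had 311, 314, 207, 102 and 97.6 RPKM. All 3 were near their 0 h level at 1 h and far below it at 4 h, with little further change at 6 h. Cnn1, the smooth muscle calponin that restrains actin-activated myosin, had 20.8, 21.6, 16.1, 5.61 and 6.90 RPKM. Myl9, the regulatory light chain through which myosin is switched on, had 106, 103, 66.6, 48.5 and 43.1 RPKM. Tpm2, a tropomyosin that lies along the actin filament, had 90.5, 99.2, 77.1, 44.5 and 46.1 RPKM. In all 6 genes 4 and 6 h lay below the earlier times, and Tagln and Myl9 were already lower at 2 h, by −0.59 and −0.67 on the log2(RPKM + 1) scale.

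Read as log2(RPKM + 1) differences of single libraries, which have no replicate and no p-value, naive 4 h against naive 0 h came to −1.19 for Acta2, −1.60 for Tagln, −1.72 for Cnn1, −1.11 for Myl9, −1.01 for Tpm2 and −1.73 for Actg2. These 6 genes were 2-fold or more lower at 4 h, as were 3.19% of all genes tested, and the median over the 10 genes was −1.06, against −0.09 over all genes. At 6 h against 0 h, still in naive cells, 5 of the 10 genes had at least that drop, against 3.70% of all genes, Tpm2 being just short of it at −0.96, and the medians were −1.0001 and −0.08. The other tropomyosin and calponin differed less. Tpm1 had 966, 969.7, 896, 636 and 633 RPKM from 0 to 6 h in the naive arm and Cnn2, the calponin of non-muscle cells, 344, 350.3, 299.8, 262 and 276 RPKM, which at 6 h against 0 h were differences of −0.61 and −0.32. Both lay lower at 4 and 6 h than at any earlier time, and so did 8 of the 10 genes, against 33.3% of all genes. The exceptions were Vcl and Srf. Of the 12 smooth muscle markers that passed the filter, a list that shares genes with the 10, 8 had this course too. Mylk and Csrp1, named after their values were seen, went the other way in naive cells. From 0 to 6 h Mylk had 5.42, 6.45, 6.03, 10.9 and 10.3 RPKM, and Csrp1 201, 202, 170, 212 and 271 RPKM. In bulk RNA, fewer cells with a contractile character and less of these transcripts per cell cannot be told apart.

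The pretreated arm started lower for several of these genes. At 4 and 6 h each of the 10 except Vcl lay closer to the 0 h library of its arm in pretreated than in naive cells. At 1 h all but Tpm2 and Srf lay farther from it in pretreated cells, such as Cnn1 with a log2 difference of 1.01, against 0.05 in naive cells. Acta2 had 984, 1512, 869.6, 1241 and 926 RPKM at 0, 1, 2, 4 and 6 h in pretreated cells. Tagln had 122, 200.4, 83.7, 152 and 85.7 RPKM there, and Actg2 18.7, 22.9, 14.8, 16.0 and 12.1 RPKM. At 0 h these 3 genes were all lower in the pretreated than in the naive library. Cnn1 had 12.9, 27.0, 9.845, 18.4 and 8.23 RPKM, Myl9 74.3, 131, 51.9, 95.6 and 61.5 RPKM, and Tpm2 72.8, 76.3, 69.97, 61.5 and 60.1 RPKM in pretreated cells. Tpm1 had 896, 1188, 863.5, 1003 and 844 RPKM, and Cnn2 345, 435, 302, 364 and 332 RPKM. All 8 were highest at 1 h, and Cnn1, Tpm1, Tpm2 and Actg2 were lowest at 6 h. At 6 h against 0 h in pretreated cells 9 of the 10 genes were lower, with a median log2 difference of −0.27, against −0.03 over all genes, from −0.59 for Cnn1 and Actg2 and −0.51 for Tagln to 0.55 for Vcl. None of the 10 was 2-fold or more lower there. Whether the arms differ at 6 h alone was not tested. The interaction term below, which called no gene, takes all later times together.

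**Figure D2:**
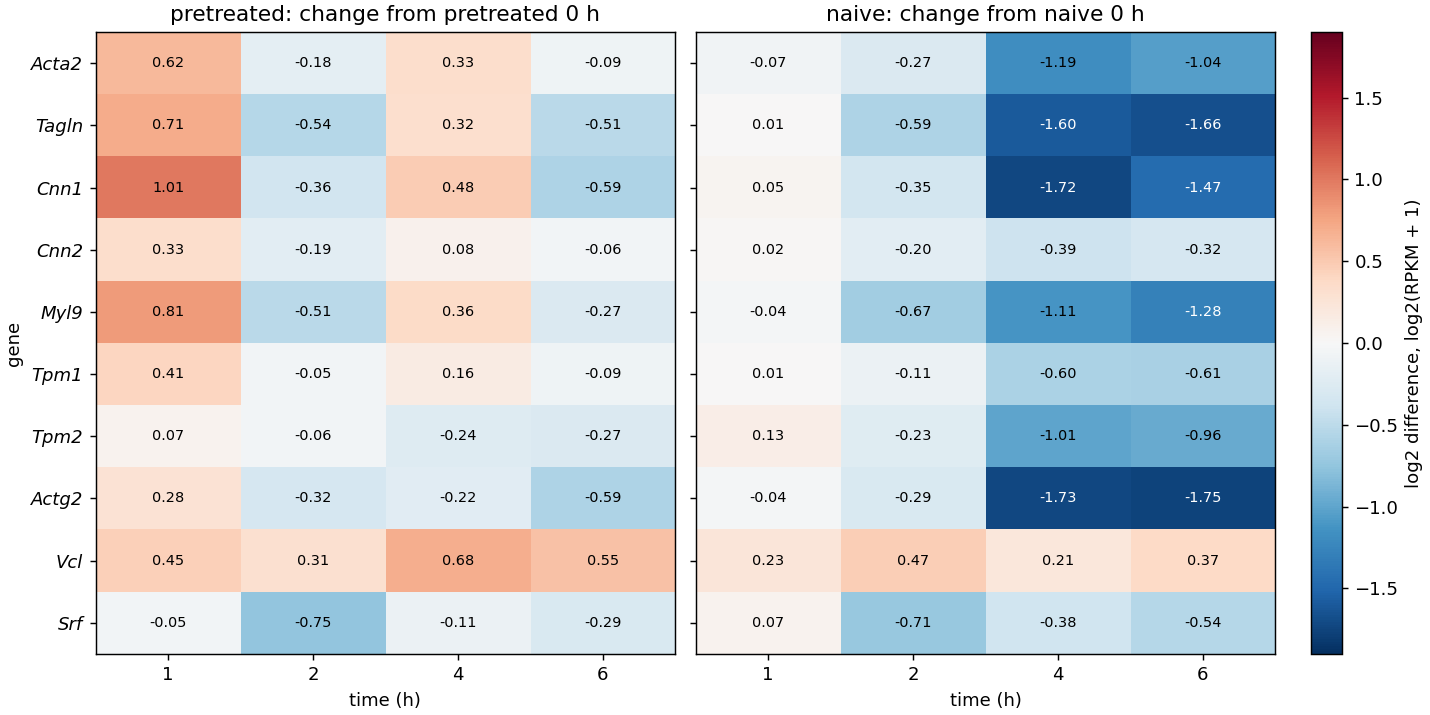
Log2 difference of log2(RPKM + 1) from the 0 h library of the same arm (colour and printed value) for each gene (rows) at 1, 2, 4 and 6 h (columns), pretreated at the left and naive at the right, 1 library per cell. The naive arm reaches −1.75 for Actg2 at 6 h, while no gene of the pretreated arm lies below −0.75, the value of Srf at 2 h.

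Pretreated against naive at 0 h gave single-library differences of −1.37 for Actg2, −1.34 for Tagln, −0.89 for Acta2, −0.65 for Cnn1, −0.51 for Myl9 and −0.31 for Tpm2. Cnn2 (0.00), Tpm1 (−0.11) and Vcl (0.14) were nearly level, and Srf was 0.41 higher. Tagln and Actg2 were thus 2-fold or more lower in the pretreated library, as were 0.838% of all genes. At 1 h only Actg2 of the 10 was 2-fold or more lower (−1.05, against 0.814% of all genes), and at 2 h Tagln and Actg2 were again (−1.29 and −1.40, against 0.953%). The balance of signs changed back and forth over time. At 1 h 6 of the 10 were higher and 4 lower in the pretreated library, with a median of 0.28, against 0.02 over all genes. At 2 h 2 were higher and 8 lower, with a median of −0.25, against −0.03. At 4 h all 10 genes were higher in the pretreated library, with a median of 0.62, against −0.01 over all genes. Cnn1 was then 1.55 higher, the 1 gene of the 10 past 2-fold, as were 0.238% of all genes. At 6 h the differences were smaller, with 8 genes higher and 2 lower in pretreated cells and a median of 0.29, against 0.05 over all genes. On TMM-scaled CPM (counts scaled to depth) Acta2 at 6 h and Vcl at 2 h change sign, at −0.01 and 0.01.

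**Figure D3:**
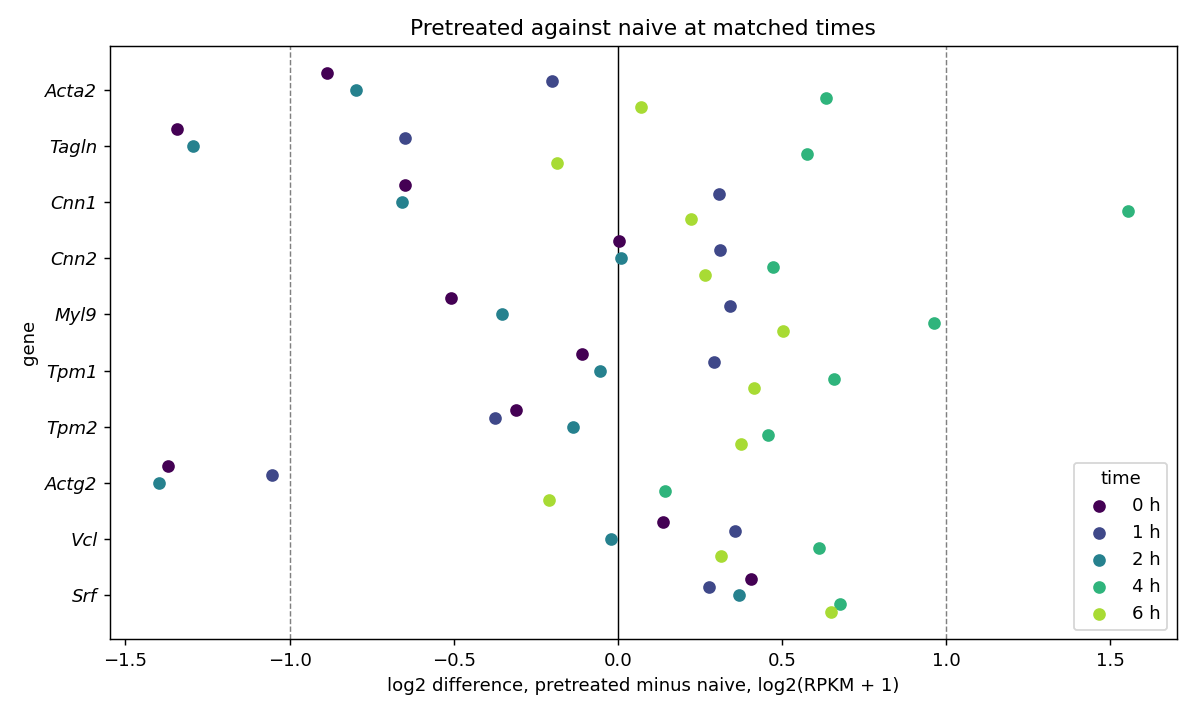
Difference of log2(RPKM + 1), pretreated minus naive (x axis), for each gene (rows) at 0, 1, 2, 4 and 6 h (colours), with dashed lines at 2-fold. Actg2 and Tagln lie left of −1 at 0 and 2 h, Cnn1 at 4 h lies at 1.55, and the 5 points of Srf lie between 0.28 and 0.68.

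The high values of the pretreated arm lay mainly in its 1 h and 4 h libraries. Acta2, Tagln, Cnn1, Cnn2, Myl9 and Tpm1, 6 of the 10 genes, were higher in both of them than in each of the pretreated 0, 2 and 6 h libraries, a pattern that 9.00% of all genes showed. Relative to the mean of 0, 2 and 6 h, the 1 h and 4 h levels were 2.61 and 1.78 for Cnn1, 2.10 and 1.53 for Myl9, 2.06 and 1.57 for Tagln, 1.63 and 1.34 for Acta2, 1.37 and 1.16 for Tpm1 and 1.33 and 1.11 for Cnn2. H19 gave 4.63 and 4.70 by the same measure. Cnn1 at 1 h against 0 h in pretreated cells was the 1 gene of the 10 past 2-fold (1.01, against 1.31% of all genes higher by that much). The pattern was also shown by 4 of 11 fibroblast markers (Col1a1, Col1a2, Col3a1 and Dcn, named after their values were seen) and by 2 of 4 pericyte markers (Rgs5 and Notch3, likewise), by 1 of 2 striated muscle markers (Acta1, likewise) and by 0 of the 4 macrophage, endothelial and epithelial markers that passed the filter. The reverse, with both libraries below each of pretreated 0, 2 and 6 h, was shown by 10.3% of all genes and 0 of the 10. Among the markers, 1 of 11 fibroblast markers (Pdgfrb) and the 1 macrophage marker that passed (Cd68) showed it. The summed fibroblast markers were 11129.8, 12923, 10225, 11642 and 9878 RPKM from 0 to 6 h in the pretreated arm. What sets these 2 libraries apart was not tested. The single-library differences of the pretreated arm at 1 h and 4 h rest on them wholly, and the fits below are given without both of them where that moved a value or a call.

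**Figure D4:**
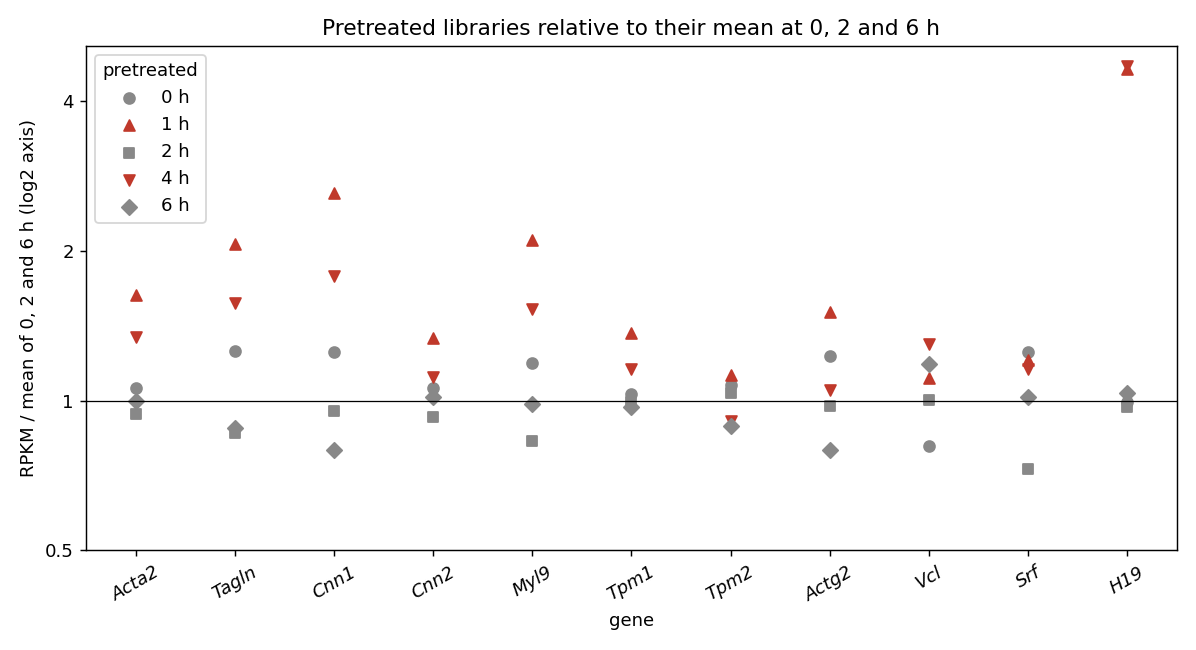
RPKM in each pretreated library divided by the mean of the pretreated 0, 2 and 6 h libraries (y axis, log2-spaced) for the 10 genes and H19 (x axis), with the 1 h and 4 h libraries in red and the others in grey. Cnn1, Myl9 and Tagln reach ratios of 2.61, 2.10 and 2.06 at 1 h, and H19 lies at 4.63 and 4.70 in both red libraries.

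Vcl and Srf kept courses of their own. Vcl, which encodes vinculin, the link between actin and adhesion complexes, had 166, 228, 207, 268 and 244 RPKM from 0 to 6 h in pretreated cells, against 151, 178, 209.9, 175 and 196 RPKM in naive cells. It was higher at every later time than at 0 h of its own arm. Srf had 30.5, 29.4, 17.7, 28.2 and 24.7 RPKM in pretreated cells, against 22.8, 24.1, 13.5, 17.3 and 15.4 RPKM in naive cells. Both arms had their lowest Srf level at 2 h, and the pretreated library was above the naive library at each of the 5 times. Cnn2 and Srf were the 2 of the 10 genes higher in pretreated cells at 5 of 5 times, as were 10.8% of all genes, although for Cnn2 the 0 h and 2 h values were all but equal (345 and 344 RPKM, and 302 and 299.8 RPKM). The ranges of Srf over time, 17.7 to 30.5 RPKM in pretreated and 13.5 to 24.1 RPKM in naive cells, overlapped.

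These contrasts were tested across all genes with edgeR's quasi-likelihood test on the counts, in a model with time and arm and 4 residual degrees of freedom, and p-values were adjusted by Benjamini-Hochberg over the 12168 genes with a threshold of 0.05. With no replicates, the p-values measure how steadily a difference holds over times or arms, not between cultures. For pretreated against naive over the 5 times, 1 of the 10 genes passed, against 1.27% of all genes. Srf rose by a log2 fold change of 0.48 (SE 0.08, edgeR adjusted p = 0.0441, higher at 5 of 5 times). This call sits at the threshold: with any single library left out the difference was 0.43 to 0.54 and the adjusted p 0.0627 to 0.172, and without both the pretreated 1 h and 4 h libraries it was 0.48 with an adjusted p of 0.0958. The difference of Actg2 was −0.83 (SE 0.25, edgeR adjusted p = 0.126) and that of Tagln −0.60 (SE 0.28, edgeR adjusted p = 0.255), and neither passed. Actg2 did by DESeq2 (adjusted p = 0.00268), and the differences of both genes lay mostly at 0, 1 and 2 h. Vcl came to 0.27 (SE 0.10, edgeR adjusted p = 0.174), Tpm1 to 0.23, Cnn2 to 0.20 and Acta2 to −0.25. The size of these differences depended on single libraries: with 1 left out they ranged from 0.18 to 0.33 for Vcl, 0.12 to 0.31 for Tpm1, 0.13 to 0.25 for Cnn2, −0.47 to −0.09 for Acta2 and −0.89 to −0.41 for Tagln. Without both the pretreated 1 h and 4 h libraries they were 0.13 for Vcl, 0.07 for Tpm1, 0.07 for Cnn2, −0.56 for Acta2, −0.97 for Tagln and −1.05 for Actg2, and none of the 10 genes was called. Cnn1 (0.15) and Myl9 (0.18) turned negative, at −0.40 and −0.14, without both the pretreated 1 h and 4 h libraries, and Tpm2, at −0.01, had no steady sign over the settings tried.

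Against 0 h over both arms, the calls fell on Srf and Vcl. At 2 h the log2 fold change of Srf, which fell, was −0.73 (SE 0.12, edgeR adjusted p = 0.0146, lower in 2 of 2 arms), the 1 gene of the 10 called, against 18.5% of all genes. Leaving out 1 of the 0 h or 2 h libraries moved its adjusted p to between 0.0516 and 0.0935, with a difference of −0.79 to −0.69. Vcl rose by 0.56 at 4 h (SE 0.15, edgeR adjusted p = 0.0321) and by 0.53 at 6 h (SE 0.15, edgeR adjusted p = 0.0356), higher in 2 of 2 arms at both times and the 1 gene of the 10 called at each, against 30.9% and 32.7% of all genes. The 4 h call of Vcl was lost without naive 0, 4 or 6 h or pretreated 0 or 4 h, where the adjusted p was 0.0508 to 0.171. The 4 h difference was 0.33 without pretreated 4 h and 0.30 without both pretreated 1 h and 4 h (edgeR adjusted p = 0.153). The 6 h call was lost without naive 0, 1 or 6 h or pretreated 0 or 6 h, where the adjusted p was 0.0519 to 0.205, and limma gave adjusted p of 0.0580 at 4 h and 0.0534 at 6 h. By direction, 7.86% of all genes were called lower at 2 h, and 16.4% and 17.3% were called higher at 4 and 6 h.

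The other 9 genes had negative differences at 6 h that did not pass by edgeR. DESeq2 called 4 of them lower (Actg2, Myl9, Srf and Tpm2), against 2382 of all 12168 genes. On log2(RPKM + 1) limma called 2 of them lower (Actg2 and Srf), against 2226 of all genes. The log2 differences from 0 h were −1.17 for Actg2 (SE 0.39, edgeR adjusted p = 0.0551), −1.12 for Cnn1 (SE 0.52, edgeR adjusted p = 0.138), −1.07 for Tagln (SE 0.43, edgeR adjusted p = 0.0958) and −0.76 for Myl9 (SE 0.33, edgeR adjusted p = 0.116). Tpm2 came to −0.56, Acta2 to −0.53, Srf to −0.37, Tpm1 to −0.29 and Cnn2 to −0.13. The arms differed widely here: the single-library 6 h difference of Tagln was −0.51 in pretreated and −1.66 in naive cells, and that of Acta2 −0.09 in pretreated and −1.04 in naive cells. With the pretreated 4 h library left out, Actg2, Cnn1 and Tagln passed at 6 h, with adjusted p of 0.0277, 0.0333 and 0.0355, and they did so too without the naive 4 h library. At 1 h no gene of the 10 was called and 0% of all genes were (0 by edgeR, 1383 at an unadjusted p under 0.05, 236 by DESeq2 and 5 by limma).

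**Figure D5:**
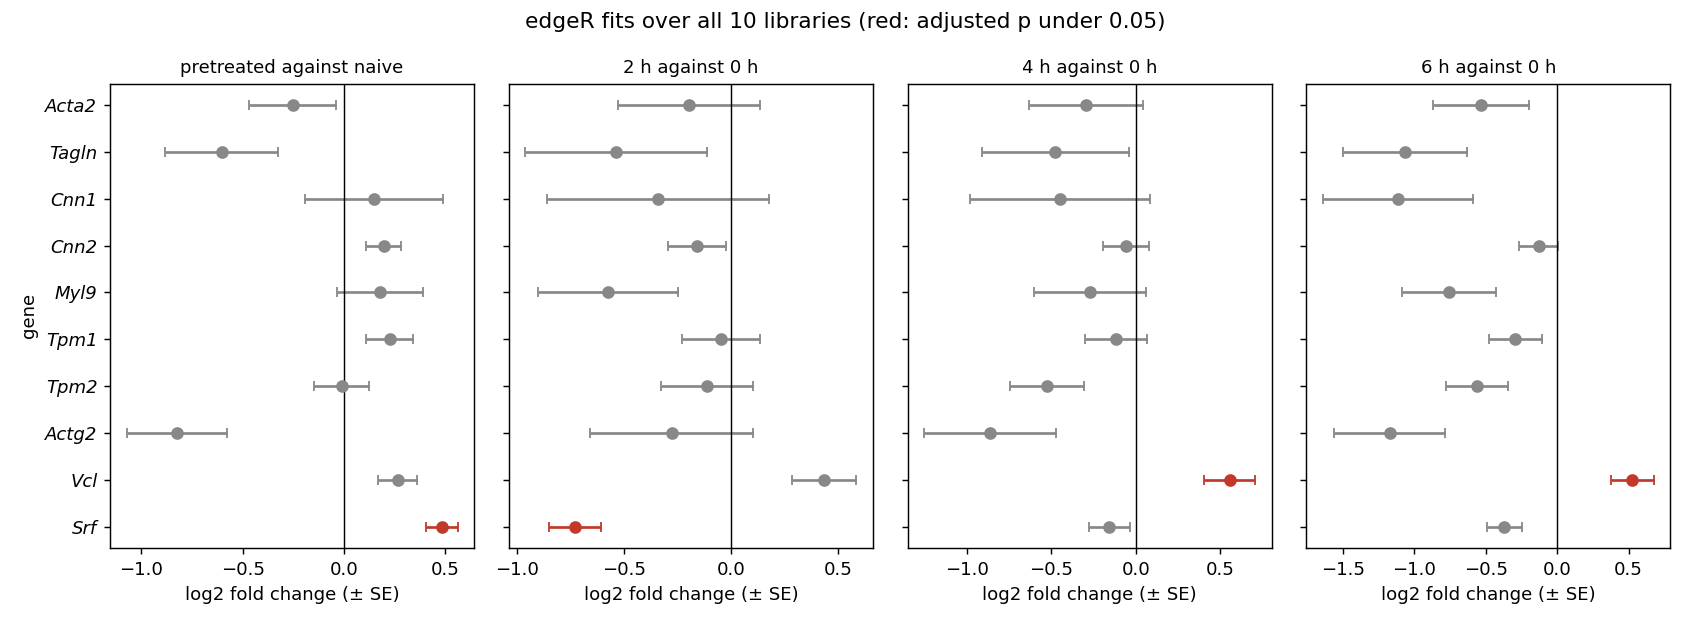
Log2 fold changes with their SE (x axis) of the 10 genes (rows) from the edgeR fit over the 10 libraries, for pretreated against naive and for 2, 4 and 6 h against 0 h over both arms, with red marking an adjusted p under 0.05. The red points are Srf between the arms (0.48) and at 2 h (−0.73) and Vcl at 4 h (0.56) and 6 h (0.53).

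Whether the change after 0 h differed between the arms was tested with an interaction term (3 residual degrees of freedom). This term assumes 1 shift shared by all later times, so it does not test any single time. Its estimate was above 0 for all 10 genes, against a median of −0.01 over all genes. That is, the later libraries lay higher relative to 0 h in the pretreated than in the naive arm. The estimates ran from 0.08 for Srf to 1.05 for Cnn1 (SE 0.78) on the log2 scale, with 0.93 for Tagln and 0.79 for Acta2. No gene of the 10 passed, with adjusted p of 0.861 to 0.967, and 0% of all genes did (0 by edgeR, 741 at an unadjusted p under 0.05, 133 by DESeq2 and 15 by limma). The estimates of all 10 genes rest on the same pair of 0 h libraries. For Vcl the estimate of 0.15 turned to −0.02 without both the pretreated 1 h and 4 h libraries.

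Across the 10 libraries, Pearson's r of log2(RPKM + 1) described how the genes moved together, as a description only since the libraries share arms and times. Among the 8 actin, myosin, calponin, tropomyosin and transgelin genes, the 28 pairs had r between 0.28 and 0.97 with a median of 0.82. Acta2 and Tagln were the closest pair at 0.97, and Cnn2 and Actg2 the most distant at 0.28. Vcl stood outside that group with r between −0.47 and 0.27. Srf was near Cnn2 (0.82) and Myl9 (0.69) and far from Actg2 (−0.03) and Acta2 (0.23). Cnn2 and Vcl, which hold the same CArG letters in their promoter windows as printed above, had r = 0.27.

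Of 8772 genes with a mean of 5 RPKM or more, those most like Acta2 were Phlda3 (r = 0.95), a pleckstrin-homology protein, Atp2b4 (0.94), a plasma membrane calcium pump, Ntrk3 (0.94), a neurotrophin receptor, Loxl2 (0.94), a collagen cross-linking oxidase, and Plcb3 (0.94), a phospholipase C. Atp2b4 followed Acta2 in both arms, with 3.003, 7.37, 2.65, 5.26 and 1.67 RPKM from 0 to 6 h in pretreated cells and 9.47, 9.33, 7.79, 3.29 and 2.57 RPKM in naive cells. The genes most like Srf were Tln1 (0.96), the adhesion protein talin, Speg (0.95), a kinase of striated muscle, Lrig1 (0.95), a membrane inhibitor of growth factor receptors, Card10 (0.95), a signalling scaffold, and Hic1 (0.94), a transcriptional repressor. Speg had 15.9, 16.5, 10.4, 13.4 and 14.5 RPKM in pretreated cells and 11.7, 13.1, 9.08, 10.8 and 10.1 RPKM in naive cells, with the low point at 2 h that Srf also had. All these r are over the same 10 libraries.

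The other genes around SRF were taken from fixed lists. Of 8 tested cofactors and ternary complex factors, 0 passed between the arms. Mkl1, which encodes MRTF-A, had 53.8, 49.1, 33.9, 34.2 and 31.3 RPKM from 0 to 6 h in pretreated cells and 57.8, 57.2, 33.3, 30.7 and 28.0 RPKM in naive cells. It fell at 2, 4 and 6 h, by 0.85 log2 units at 6 h (SE 0.12 and edgeR adjusted p = 0.00778, lower in 2 of 2 arms). Elk3 and Elk1 fell at 6 h as well, by 0.55 and 0.45, and Mkl2 (MRTF-B) by 0.32. Elk4 rose at 2 h by 0.55. Fhl2, a LIM protein that binds SRF, rose by 0.999 at 4 h and 0.908 at 6 h, with 61.5, 73.9, 84.7, 90.03 and 74.7 RPKM in pretreated cells and 32.9, 43.96, 52.1, 79.5 and 84.1 RPKM in naive cells. Its 6 h difference was 0.43 without naive 6 h, and both calls of Fhl2 were lost without both pretreated 1 h and 4 h (edgeR adjusted p = 0.115 and 0.0803). The 6 h call of Mkl2 was lost with any single library left out. Over the list, 1 rose and 2 fell at 2 h, 4 rose and 3 fell at 4 h, and 2 rose and 4 fell at 6 h, against 10.6% and 7.86%, 16.4% and 14.5%, and 17.3% and 15.4% of all genes. The list calls are fragile, as are those of all genes. In the 5 pathway lists together, 15 genes were called at 2 h, 23 at 4 h and 28 at 6 h. Without naive 0 h, which leaves 1 library at 0 h, they and nearly all other genes lost their call. That loss is thus not particular to the lists. Without both pretreated 1 h and 4 h, 15 kept it at 2 h and 24 at 6 h, where 1905 and 3555 of all genes were called. At 4 h, which that leaves with 1 library, they lost it, as did all other genes. Myocd did not pass the filter.

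Of 36 tested MRTF-SRF cytoskeletal targets outside the 10, 1 passed between the arms by edgeR. Ctgf, a secreted matrix protein gene, had 27.3, 43.9, 91.3, 56.3 and 27.4 RPKM from 0 to 6 h in pretreated cells and 20.1, 22.6, 50.8, 44.2 and 16.7 RPKM in naive cells, and it rose by 0.65 between the arms (SE 0.10, edgeR adjusted p = 0.0408, higher at 5 of 5 times). That call was lost with 8 of the 10 libraries left out in turn, all but the 4 h libraries of either arm, with differences of 0.58 to 0.72 and adjusted p up to 0.170, and without both pretreated 1 h and 4 h (0.65, edgeR adjusted p = 0.0987). Over the list, 2 rose and 1 fell at 2 h, 7 rose and 6 fell at 4 h, and 7 rose and 7 fell at 6 h, with a median of −0.13 at 6 h. Of all genes 16.4% were called higher and 14.5% lower at 4 h, and 17.3% higher and 15.4% lower at 6 h, so these counts are near the background. Of the 6 most abundant, Actb and Actg1 (the cytoplasmic actins) and Myh9 (non-muscle myosin) did not pass at any time. Pfn1 (profilin) fell by 0.83, Cfl1 (cofilin) by 0.73 and Zyx (zyxin) by 0.66 on the log2 scale at 6 h, with adjusted p of 0.0221, 0.0278 and 0.0281 by edgeR. In 19 of the 36 both naive 4 and 6 h lay below naive 0, 1 and 2 h, against 33.3% of all genes. The pretreated peaks at 1 h and 4 h were shown by 12 of the 36, against 9.00% of all genes. Pretreated cells were higher at 5 of 5 times in 12 of the 36, against 10.8% of all genes. Between the arms DESeq2 called 12 of the 36 higher and 0 lower, against 576 and 795 of all 12168 genes.

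Of 12 immediate early genes served by the ternary complex factors, 0 rose or fell between the arms. At 2 h 4 of the 12 fell (Dusp1, Ier2, Arc and Fosb), against 7.86% of all genes called lower, Dusp1, a MAP kinase phosphatase, by 1.22 in log2 units (SE 0.20, edgeR adjusted p = 0.0127), and the list's median was −1.06. Arc lost its call with 8 of the 10 libraries left out in turn, and without both pretreated 1 h and 4 h the number that fell was 6. Egr1 had 49.8, 105.8, 57.5, 98.4 and 42.0 RPKM from 0 to 6 h in pretreated cells and 111, 108, 25.7, 70.0 and 48.9 RPKM in naive cells, and passed at no time. Nr4a1, an orphan nuclear receptor, rose by 1.80 at 4 h (edgeR adjusted p = 0.0496), a call lost with any single library left out and a difference of 0.55 without pretreated 4 h. Junb, Mcl1 and Fosl1, the other abundant members, did not pass.

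Of 16 tested regulators of myosin activity and actin assembly, 0 passed between the arms, 2 rose and 1 fell at 2 h, 3 rose and 1 fell at 4 h, and 5 rose and 2 fell at 6 h, against the same shares of all genes as above. Rock1, a kinase that promotes myosin activity, rose by 1.03 and 1.02 on the log2 scale at 2 and 6 h (edgeR adjusted p = 0.00778 at 6 h), and Ppp1r12a, a subunit of the myosin phosphatase that counters it, by 0.80 and 0.67 at 4 and 6 h. Rhoc rose by 0.55 and Rhob fell by 0.97 at 6 h (by 0.59 without naive 0 h), while Rhoa, Rac1 and Cdc42 did not pass. Of 15 genes of the TGF-β axis, the pathway best known for inducing Acta2 in fibroblasts, 0 passed between the arms, 0 rose and 2 fell at 2 h (Smad3 by 0.62 and Smad6 by 0.76), 0 passed at 4 h, and 1 rose and 2 fell at 6 h (Ltbp1 rose by 0.39, Tgfb1 fell by 0.61 and Smad7 fell by 0.63). Of all genes 10.6% were called higher and 7.86% lower at 2 h. The shares were 16.4% and 14.5% at 4 h, and 17.3% and 15.4% at 6 h. Tgfbr2, Tgfbi, Tgfb3 and Smad4 did not pass. Ier2, Arc, Fosb, Rock1, Smad3, Smad6, Smad7 and Tgfb1 were named after their values were seen.

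Some values can hold reads of other transcripts, since the use of strand in counting is not given. Exons of Tagln (62.4% of its exonic bases with Gm48529 and 5.43% with Pcsk7) and of Vcl (25.5% with Ap3m1) overlap genes on the opposite strand in the GENCODE M21 annotation, where Pcsk7 had 6.46 to 9.10 RPKM and Ap3m1 9.89 to 14.4 RPKM. Of all stretches of 50 bases along the transcript, on either strand, 48.3% in Tagln, 39.2% in Vcl and 0.352% in Acta2 also occur in a transcript of another gene, and 0% in the other 7. Tpm1 had 10 transcript rows, and how many reads they share was not measured. The values given are those of NM_024427, the row with the highest mean. The 10 rows had means of 321 to 889.5 RPKM, and naive 6 h against 0 h gave −0.81 to −0.60 in them, against −0.28 to −0.07 for pretreated 6 h against 0 h. In the deposited table, on mm10, Acta2 is NM_007392 with 9 exons at chr19:34240336-34255373 (minus strand), and Srf is NM_020493 with 7 exons at chr17:46546839-46556162 (minus strand).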

How the data were processed

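Total RNA of 10 libraries was sequenced. Per the submitters' processing notes, Bowtie, TopHat and Cufflinks 1.2.1 and the build mm10 were used, with no role stated. Per the file headers, the deposited table pairs RPKM values with tag counts for RefSeq transcripts in each library. The counts were deposited without normalisation, and the RPKM values were scaled by the authors to transcript length and library. Counting tool and strand use are not given in those notes.

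Of 30646 rows, 15 named no gene (0.0157% to 0.0193% of a library's counts) and were left out. The row with the highest mean RPKM was kept for each symbol, and genes were tested where 2 or more libraries reached 1 RPKM. The counts were tested with edgeR 4.0.16 (R 4.3.3, glmQLFit and glmQLFTest, TMM scaling) on time and arm, or with an arm-by-stimulation term, two-sided, with Benjamini-Hochberg adjustment. SE is the log2 fold change over the root of F. Single libraries were compared on log2(RPKM + 1), which understates folds of low genes. DESeq2 1.42.0, limma 3.58.1, other scalings, filters and transcript rows and leaving out libraries were tried. The tests were run on simulated counts drawn from the same model, which does not show how well that model describes these unreplicated libraries. The 10 genes and all lists were chosen with earlier results of these data known. Named genes are the 10, the 5 genes most like Acta2 and the 5 most like Srf (mean of at least 5 RPKM), and in each pathway list the 6 most abundant members and those called between the arms or at 1 h, with exceptions stated. A few genes of the lists are not reported here.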

Additional observations from a re-analysis of the deposited data

How the results depend on the processing

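No paired analysis was possible because each arm and time had 1 library and the labels give no replicate numbers, so no replicate block could be fitted, although the time term of the edgeR model sets the arms against each other within each time. RLE scaling and the choice of transcript row kept the direction and side of the threshold of every result tested for the 10 genes. Under either of them 8 MRTF-SRF targets fell at 6 h, against the 7 given above. For pretreated against naive, genes called were 154 (47 higher, 107 lower) by edgeR, 1371 (576 and 795) by DESeq2, 204 (100 and 104) and 158 (72 and 86) by limma with pseudocounts 1 and 0.1, 316 with no RPKM filter, 9 without the time term and 14 without both pretreated 1 h and 4 h, and of the 10 genes 2 were called by DESeq2 and 0 without the time term or without both libraries. At 1 h the genes called were 236 by DESeq2 and 5 by limma with either pseudocount or with no filter. At 2 h they were 3654 by DESeq2, which called 2 of the 10, as did edgeR without both pretreated 1 h and 4 h. At 4 h DESeq2 called 3 of the 10 and limma 0 with either pseudocount, limma's split of all genes was 1619 higher and 2538 lower against 1991 and 1768 by edgeR, and without both pretreated 1 h and 4 h edgeR called 0 genes and 0 of the 10 (4189 genes at an unadjusted p under 0.05). At 6 h DESeq2 called 5 of the 10 (1 higher, 4 lower), limma 2 with either pseudocount (0 and 2), and edgeR without both libraries 3 (1 and 2), against 1 (1 and 0) by edgeR. Of all 12168 genes DESeq2 called 4687 at 4 h and 4924 at 6 h, and limma with pseudocount 1 called 4157 and 4051. For the interaction the genes called were 133 by DESeq2, 15 and 23 by limma with pseudocounts 1 and 0.1, and 28 with no filter. Reversals were Tpm2 between the arms under limma (0.0022 and 0.0033) and, without both pretreated 1 h and 4 h, Cnn1 (−0.40) and Myl9 (−0.14) between the arms and Vcl in the interaction (−0.024). The cause was not tested.

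Leaving out 1 library at a time gave 2 to 175 genes called between the arms, 0 to 24 at 1 h, 3 to 2751 at 2 h, 3 to 3970 at 4 h, 8 to 4167 at 6 h and 0 in the interaction, which could not be fitted without either 0 h library. The low ends at 2 h came without pretreated 2 h, at 4 h without naive 4 h and at 6 h without naive 0 h. Of the 10 genes 0 were called between the arms, 0 at 1 h, 0 to 1 at 2 h, 0 to 2 at 4 h, 0 to 4 at 6 h and 0 in the interaction. A time left with 1 library is assumed to vary like the others. Signs changed between the arms for Cnn1 (−0.22 to 0.37), Myl9 (−0.023 to 0.35) and Tpm2 (−0.13 to 0.090), and at 1 h for Acta2 (−0.11 to 0.67), Tagln (−0.091 to 0.84), Myl9 (−0.034 to 0.82), Tpm2 (−0.15 to 0.33), Actg2 (−0.22 to 0.51) and Srf (−0.12 to 0.14). They changed at 2 h for Acta2 (−0.58 to 0.25), Tagln (−1.04 to 0.0029), Cnn1 (−0.97 to 0.28), Tpm1 (−0.25 to 0.17), Tpm2 (−0.30 to 0.084) and Actg2 (−0.73 to 0.14), and at 4 h for Acta2 (−0.90 to 0.21), Tagln (−1.30 to 0.17), Cnn1 (−1.58 to 0.36), Cnn2 (−0.24 to 0.11), Myl9 (−0.81 to 0.20) and Tpm1 (−0.40 to 0.14). Depth does not limit these genes, whereas the lack of replicates does.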
